A study of Mus musculus with 8 samples.

Results

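Chemokines are small secreted proteins that draw leukocytes toward a tissue. They are sorted into a CC family, in which the first conserved cysteines are adjacent, and a CXC family, in which a single residue parts them, and they act through receptors of the G protein-coupled class. Renal tubule cells are known to release them when inflammatory signals reach the cells, and many of their genes are known targets of NF-kB and interferon-responsive factors, with transcripts that can be short-lived through AU-rich elements in the 3' UTR.

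The 6 chemokine genes described here, Ccl2, Ccl7, Ccl20, Cxcl1, Cxcl10 and Cxcl12, were taken by symbol from a table of 15288 genes. They were proposed with results of these data in view, so their levels, their differences between groups and their slopes are given as a description. Where members past a threshold are counted, the share of all genes stands beside the count and nothing is read from it. The data are raw counts from 8 bulk RNA-seq libraries of the mouse kidney duct cell line IMCD, named for the inner medullary collecting duct, the last part of the renal tubule. All cells were grown to confluence in high-glucose DMEM with pyruvate, 10% FBS, penicillin and streptomycin, and then held for 12 h in DMEM free of FBS, without added NaCl in the control group (libraries 1 to 4) or with 100 mmol NaCl in the other (libraries 5 to 8). The labels give no volume for the NaCl and do not say whether libraries came from separate cultures, so the spread between them may be technical. In bulk RNA, fewer cells that carry a transcript and less transcript per cell cannot be told apart.

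Of the other ligand genes with symbols of the Ccl, Cxcl and Cx3cl pattern in the annotation, 13 had a row in the table: Ccl5, Ccl8, Ccl9, Ccl17, Ccl25, Ccl28, Cxcl2, Cxcl3, Cxcl5, Cxcl15, Cxcl16, Cxcl17 and Cx3cl1. The remaining 13 had no row: Ccl1, Ccl3, Ccl4, Ccl6, Ccl11, Ccl12, Ccl19, Ccl22, Ccl24, Ccl26, Cxcl9, Cxcl13 and Cxcl14.

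Promoter windows from 250 bases before to 50 bases after the RefSeq start site (GRCm38.p6) were matched for 4 of the 6 genes. Ccl2 and Ccl7 were not matched. The windows are shown because Ccl20, Cxcl1 and Cxcl10 hold NF-kB motifs in them and Cxcl12 does not. Each is printed 5′ to 3′ on the strand of its gene. Capitals mark the kappa-B consensus in Ccl20, Cxcl1 and Cxcl10, also the interferon-stimulated response element (ISRE) motif in Cxcl10, and the GC box GGGCGG in Cxcl12.
Ccl20, chr1:83116516-83116815, plus strand: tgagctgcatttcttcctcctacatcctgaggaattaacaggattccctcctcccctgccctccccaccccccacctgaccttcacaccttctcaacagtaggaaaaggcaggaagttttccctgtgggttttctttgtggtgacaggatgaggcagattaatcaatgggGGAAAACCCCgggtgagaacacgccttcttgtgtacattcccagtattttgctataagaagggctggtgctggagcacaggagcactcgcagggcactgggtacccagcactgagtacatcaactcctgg
Cxcl1, chr5:90890995-90891294, plus strand: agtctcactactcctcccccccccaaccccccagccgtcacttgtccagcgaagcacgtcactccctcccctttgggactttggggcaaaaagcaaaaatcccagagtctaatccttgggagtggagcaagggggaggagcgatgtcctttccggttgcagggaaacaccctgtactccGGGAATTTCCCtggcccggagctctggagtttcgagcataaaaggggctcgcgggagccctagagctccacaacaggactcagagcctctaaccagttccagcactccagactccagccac
Cxcl10, chr5:92348840-92349139, minus strand: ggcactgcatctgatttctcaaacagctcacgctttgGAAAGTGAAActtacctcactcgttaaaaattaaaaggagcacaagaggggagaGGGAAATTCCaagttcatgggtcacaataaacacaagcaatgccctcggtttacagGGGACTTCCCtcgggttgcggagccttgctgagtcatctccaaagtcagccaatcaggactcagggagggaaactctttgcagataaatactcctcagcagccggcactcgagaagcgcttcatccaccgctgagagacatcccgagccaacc
Cxcl12, chr6:117168285-117168584, plus strand: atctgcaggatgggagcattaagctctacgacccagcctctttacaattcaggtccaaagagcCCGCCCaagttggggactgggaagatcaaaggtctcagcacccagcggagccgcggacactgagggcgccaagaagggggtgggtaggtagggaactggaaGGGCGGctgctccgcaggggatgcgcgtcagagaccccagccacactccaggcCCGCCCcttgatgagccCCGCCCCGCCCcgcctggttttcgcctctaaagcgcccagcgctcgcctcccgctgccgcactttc

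Both strands were searched, with positions counted from the start site at 0. The kappa-B consensus matched Ccl20 at -80 to -71 and Cxcl1 at -71 to -62, with an overlapping match on the other strand at -70 to -61. Cxcl10 held it at -159 to -150 and at -103 to -94. Of 32544 windows of this length in the RefSeq table, 4.53% held such a match. Cxcl10 also held the ISRE motif at -213 to -204, a motif found in 3.45% of windows. The core of the tonicity-responsive element, TGGAAA, overlapped it at -215 to -210 and occurred in 21.5% of windows. Its AP-1 motif TGANTCA lay at -74 to -68 (7.79% of windows) and its CCAAT box at -54 to -50 (37.4%). Cxcl12 held none of these and 5 GC boxes, where 35.9% of windows held at least 1, and its window had a GC content of 64.7% against 50.3% in Cxcl10. No window of the 4 held the letters TATAAA, which 13.6% of windows held. A match describes letters in a window and not a bound site.

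The transcripts also differed in the AU-rich pentamer ATTTA, counted on the sense strand of the longest annotated 3' UTR (GENCODE M21, GRCm38). Cxcl1 had 7 in 592 bases and Ccl20 had 9 in 1050 bases, a density that exceeded 99.5% and 98.7% of 12716 tested genes. Ccl7 had 2 in 435 bases, Ccl2 had 1 in 275 bases, Cxcl10 had 3 in 996 bases and Cxcl12 had 4 in 5188 bases. The median over all genes was 1.30 per kilobase, and Cxcl12 with 0.771 was the member below it. The densest 30-base stretches of Cxcl1 and Ccl20 are shown with the pentamers in capitals, because these 2 members had the highest densities. They hold 4 and 2 pentamers, and the densest stretch of Cxcl12 also held 2.
Cxcl1, chr5:90892602-90892631, plus strand: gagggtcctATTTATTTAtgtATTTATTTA
Ccl20, chr1:83119055-83119084, plus strand: tgtaaagatATTTAatgttctgtttATTTA

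Ccl2 and Ccl7 are neighbours on chromosome 11, at 82035571 to 82037453 and 82045712 to 82047525, both on the plus strand. Cxcl1 lies on chromosome 5 at 90891241 to 90893115 and Cxcl10 on the minus strand of the same chromosome at 92346638 to 92348889. Ccl20 is on chromosome 1 at 83116766 to 83119167, and Cxcl12 on chromosome 6 at 117168535 to 117181367. No member shared 75 bases at 98% identity with a transcript of another gene, except Cxcl10, which shared 133 bases (5.96% of its longest transcript) with Art3. Art3 and Gm17268 overlap Cxcl10 and Ccl2 on the opposite strand. Neither had a row in the table, and the use of strand in counting is not given in the sources used here, so antisense reads cannot be told apart.

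Depth lay between 35286796 and 47565623 counts per library, with the lowest in NaCl replicate 5 and the highest in control replicate 1. Of the collecting duct markers listed, 17 of 18 had a row, with a summed level of 710 to 894 CPM (counts per library, scaled to a common depth) in control and 755 to 891 CPM in NaCl libraries, mostly from keratins, Pax8 and Tfcp2l1. Of 14 tested, 4 rose with NaCl (Avpr2, Slc14a2, Cdh1 and Pax8, by 6.04-, 2.18-, 2.70- and 1.45-fold) and 4 fell (Scnn1g, Gata3, Tfcp2l1 and Hoxb7). The share called over all tested genes was 34.1%. Avpr2 was rare, with counts of 0, 6, 11 and 1 in control and 16, 16, 48 and 25 in NaCl libraries. Aqp2, the vasopressin-regulated water channel, had counts of 0, 1, 3 and 0 in control and 12, 8, 15 and 14 in NaCl libraries, and it and Cdh1, the epithelial cadherin, reached at most 0.364 and 0.709 CPM. Of the stromal markers 8 of 10 had a row, summing to 3199 to 3708 CPM in control and 2900 to 3336 CPM in NaCl libraries, most of it Col1a1. Pdgfrb, a receptor of pericytes and fibroblasts, rose from 37.5 ± 3.86 to 61.1 ± 3.78 CPM (SD, n = 4 each; edgeR adjusted p = 1.08e-06), Acta2 also rose, and Col1a1 and Pdgfra fell. Of the leukocyte markers 4 of 11 had a row (68.1 to 84.6 CPM in control, 81.2 to 94.0 CPM in NaCl). Adgre1, Itgam, Tyrobp, Lyz2 and Cd3e were among those with none. Of the 4 with a row, Ptprc, the pan-leukocyte phosphatase CD45, rose from 4.05 ± 0.346 to 13.5 ± 0.434 CPM (SD, n = 4 each; edgeR adjusted p = 5.91e-10). The other leukocyte markers were not called, with log2 fold changes of -0.51 for Cd68, -0.05 for Csf1r and 0.09 for Cd14, and Cd14 made up most of the sum. Of the endothelial markers 4 of 7 had a row (45.7 to 57.4 CPM in control, 34.9 to 53.6 CPM in NaCl). The part of other cell types in the chemokine levels was not tested.

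All 6 members passed the filter on low counts, and 3 of them, Ccl2, Ccl7 and Cxcl12, lay higher in every NaCl library than in any control. Over all 14024 tested genes, 16.5% separated in this direction and 33.4% in either. In edgeR's quasi-likelihood fit over all genes, 4 of the 6 had an adjusted p-value under 0.05 (3 higher, 1 lower), where 34.1% of all tested genes did. The median log2 fold change of the 6 was 0.34, with members on both sides of 0, and over all tested genes the median was 0.00287 and the median absolute change 0.141. The members were chosen on this contrast, so nothing is read from these counts and medians. Fold changes and standard errors (SE) below come from that fit, on CPM scaled by TMM, a trimmed-mean library scaling.

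**Figure D1:**
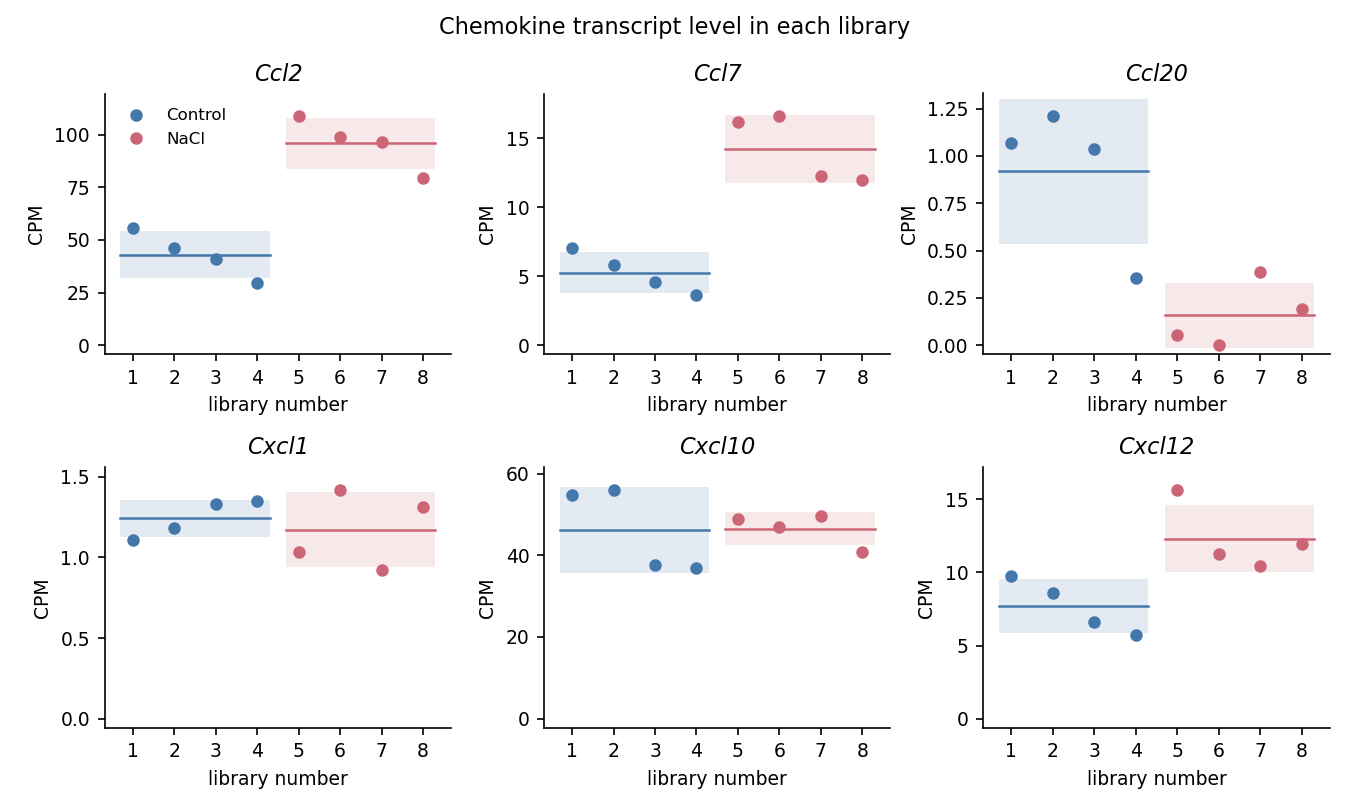
Level of each chemokine transcript in CPM (y axis, linear) in libraries 1 to 8 (x axis), control in blue and NaCl in red; lines are group means and bands are 1 SD (n = 4 each). The NaCl libraries of Ccl2, Ccl7 and Cxcl12 lie above all controls, and the groups of Ccl20, Cxcl1 and Cxcl10 overlap. Ccl20 is below 0.4 CPM in every NaCl library and in control library 4.

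Ccl2 encodes MCP-1, the main chemoattractant for monocytes. Its counts were 2661, 1942, 1692 and 1242 in control libraries 1 to 4 and 3894, 4188, 3982 and 3333 in NaCl libraries 5 to 8. In CPM these were 55.8, 46.0, 40.9 and 29.4 against 108.6, 99.04, 96.5 and 79.4. The groups were far apart, with the lowest NaCl library well above the highest control. The means of 43.0 ± 10.99 and 95.9 ± 12.2 CPM (SD, n = 4 each) gave a log2 fold change of 1.15 (SE 0.21) or 2.22-fold, and 2.60% of tested genes had a larger absolute change.

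Ccl7 encodes MCP-3, which acts on monocytes through receptors it shares with MCP-1. Control libraries held 335, 244, 189 and 154 counts of it, and NaCl libraries 579, 701, 506 and 502. The levels were 7.02, 5.79, 4.57 and 3.64 CPM against 16.2, 16.6, 12.3 and 12.0 CPM. Every NaCl library was again above every control. The means of 5.25 ± 1.47 and 14.2 ± 2.47 CPM (SD, n = 4 each) gave a log2 fold change of 1.43 (SE 0.19) or 2.70-fold.

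As a ratio between these neighbouring genes, there were 7.94, 7.96, 8.95 and 8.06 Ccl2 counts per Ccl7 count in control libraries and 6.73, 5.97, 7.87 and 6.64 in NaCl libraries. NaCl library 7 lay almost level with control library 1, and the difference between the groups was not tested. The groups had means of 8.23 ± 0.485 and 6.80 ± 0.787 (SD, n = 4 each). Within the summed counts of the 6 genes, Ccl2 took 38.0 to 44.5% in control and 54.5 to 57.0% in NaCl libraries. Cxcl10 took 40.8 to 47.7% and 25.7 to 29.1%. The 6 genes together held 0.0077 to 0.0130% of all counts in control and 0.0144 to 0.0193% in NaCl libraries.

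**Figure D2:**
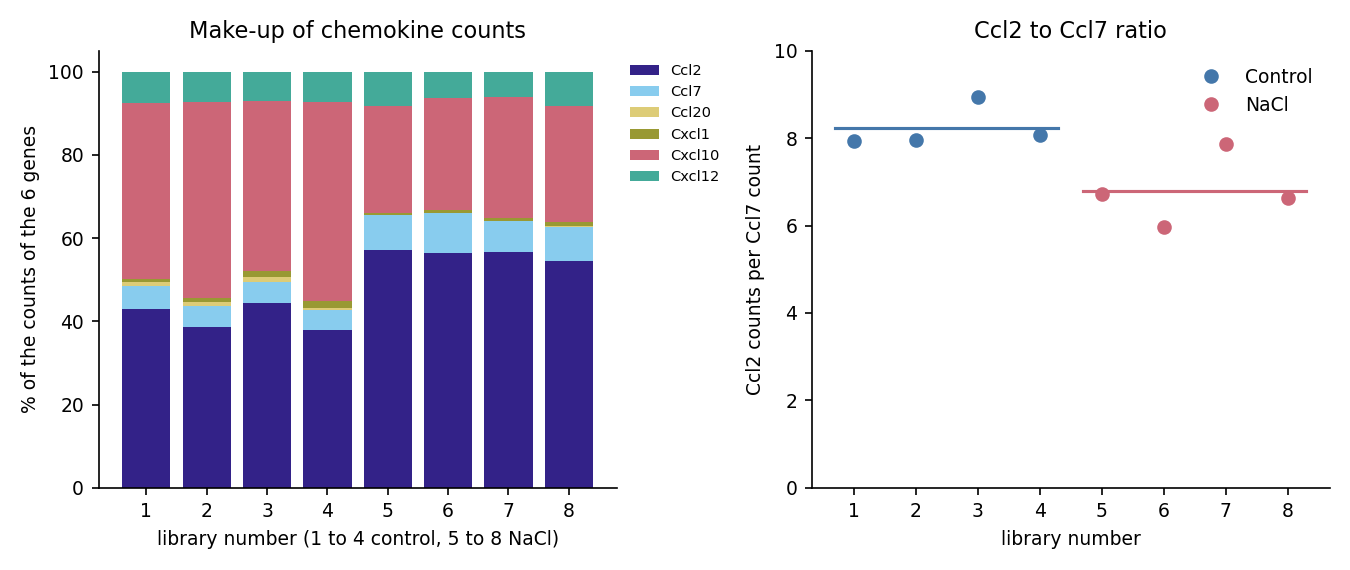
Left: share of each gene (% of the summed counts of the 6 genes, y axis) in libraries 1 to 8 (x axis). Right: Ccl2 counts per Ccl7 count in each library, with group means as lines. Ccl2 makes up 54.5 to 57.0% of the bars in NaCl libraries and at most 44.5% in control.

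Cxcl12 encodes SDF-1, a constitutively made chemokine that binds CXCR4 and the scavenging receptor ACKR3. Its counts were 467, 364, 273 and 243 without added NaCl and 561, 477, 430 and 501 with it. The levels were 9.79, 8.63, 6.60 and 5.75 CPM against 15.7, 11.3, 10.4 and 11.9 CPM. The groups did not overlap, but control library 1 came close to NaCl library 7, and NaCl library 5 stood highest. The means of 7.69 ± 1.85 and 12.3 ± 2.30 CPM (SD, n = 4 each) gave a log2 fold change of 0.67 (SE 0.17) or 1.59-fold.

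Ccl20 encodes the ligand of CCR6, which recruits dendritic cells and Th17 cells. It was rare in all libraries, with counts of 51, 51, 43 and 15 in the controls against 2, 0, 16 and 8 with NaCl. Every control but only NaCl library 7 held at least 10 counts, so it passed the filter on low counts through the control group. The library with 0 counts allows up to 0.0709 CPM at 3 counts, which covers counting error only. In CPM the libraries had 1.07, 1.21, 1.04 and 0.355 against 0.0558, 0, 0.388 and 0.191. Control library 4 lay below NaCl library 7, so the groups overlapped at that pair. The means of 0.918 ± 0.383 and 0.159 ± 0.172 CPM (SD, n = 4 each) gave a log2 fold change of -2.50 (SE 0.63), or 5.64-fold lower with NaCl. That log2 fold change was -3.42 without NaCl library 7 and -2.07 without NaCl library 6, the ends of its range with each library left out.

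Cxcl10 encodes IP-10, the interferon-inducible ligand of CXCR3. Controls 1 to 4 had counts of 2610, 2362, 1552 and 1559, and NaCl libraries 5 to 8 of 1753, 1985, 2042 and 1711. The levels were 54.7, 56.0, 37.5 and 36.9 CPM against 48.9, 46.9, 49.5 and 40.8 CPM. All NaCl libraries lay between the higher and the lower pair of controls. The means of 46.3 ± 10.5 and 46.5 ± 3.997 CPM (SD, n = 4 each) gave a log2 fold change of 0.01 (SE 0.17).

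Cxcl1 encodes KC, a neutrophil attractant that acts through CXCR2. Counts were low, at 53, 50, 55 and 57 in the controls and 37, 60, 38 and 55 with NaCl. The levels were 1.11, 1.19, 1.33 and 1.35 CPM against 1.03, 1.42, 0.921 and 1.31 CPM. The NaCl libraries spanned the whole control range. The means of 1.24 ± 0.114 and 1.17 ± 0.233 CPM (SD, n = 4 each) gave a log2 fold change of -0.08 (SE 0.24). A single SE to either side of this change spans folds of 0.802 to 1.11.

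**Figure D3:**
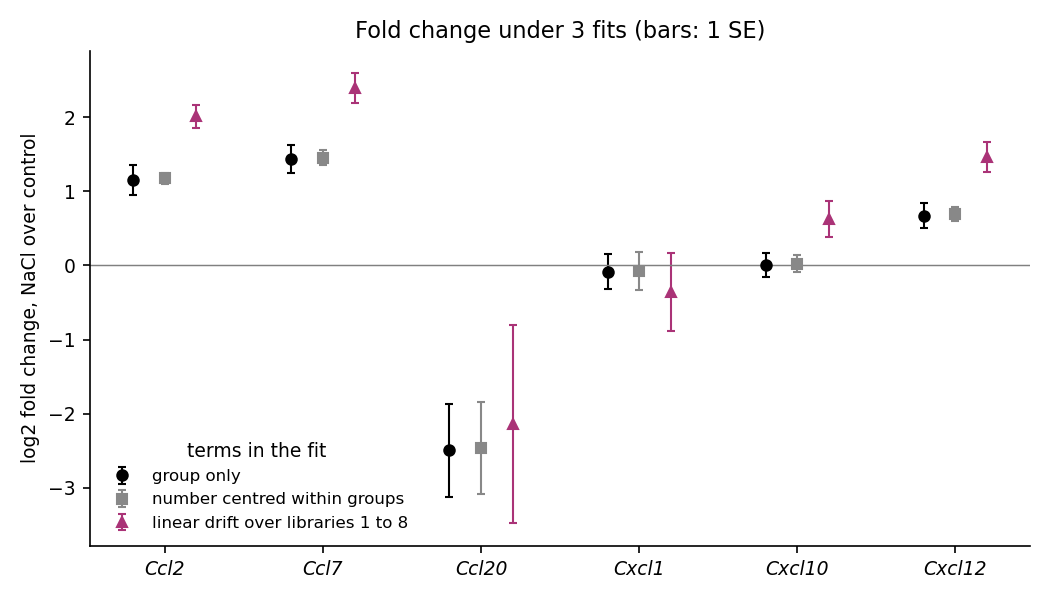
Log2 fold change of NaCl over control (y axis) for each gene under fits with the group alone, with the library number centred within groups, and with a linear drift over libraries 1 to 8; bars are 1 SE. Under the drift, Ccl2, Ccl7, Cxcl12 and Cxcl10 stand at 2.01, 2.40, 1.46 and 0.63.

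Levels between genes were compared per length, as RPKM (CPM per kilobase of annotated exon). In control libraries the order was Ccl2 (37.8 ± 9.66 RPKM), Cxcl10 (20.5 ± 4.67), Ccl7 (6.56 ± 1.83), Cxcl12 (0.941 ± 0.226), Cxcl1 (0.663 ± 0.0610) and Ccl20 (0.646 ± 0.269; SD, n = 4 for each). Ccl2 was above 91.3% of 15274 genes in control mean RPKM and Cxcl1 above 23.1%. The ranges of Cxcl12, Cxcl1 and Ccl20 overlapped, and those of the other neighbours did not. In NaCl libraries the order was the same, with 84.3 ± 10.7, 20.7 ± 1.77, 17.8 ± 3.08, 1.51 ± 0.282, 0.624 ± 0.124 and 0.112 ± 0.121 RPKM. There Ccl7 overlapped Cxcl10, and no other neighbours overlapped. Per kilobase of the longest coding transcript, the control levels of Cxcl1 and Cxcl12 were 1.30 and 1.37, and that of Cxcl10 was 34.2. In NaCl libraries that length gave 34.4 ± 2.95 for Cxcl10 and 17.8 ± 3.08 for Ccl7, so their overlap depends on the length used.

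The libraries carry numbers from 1 to 8, and the labels do not say what these stand for. Inside the control group, 5 of the 6 genes had lower levels at higher library numbers, with slopes (log2 change per number) of -0.29 (SE 0.03) for Ccl2, -0.32 (SE 0.06) for Ccl7, -0.27 (SE 0.06) for Cxcl12, -0.23 (SE 0.05) for Cxcl10 and -0.43 (SE 0.27) for Ccl20. The Cxcl1 slope was 0.10 (SE 0.16). Inside the NaCl group the slopes were shallower for Ccl2 (-0.14, SE 0.03), Ccl7 (-0.17, SE 0.05), Cxcl12 (-0.13, SE 0.06) and Cxcl10 (-0.07, SE 0.05), and were 0.85 (SE 0.45) for Ccl20 and 0.04 (SE 0.17) for Cxcl1. The difference between the groups' slopes was not tested. The median slope over the members was -0.28 in control and -0.10 in NaCl libraries, where it was -7.43e-05 and -0.00217 over all tested genes. Cell type markers moved along the same number: in the fit with a shared slope, 6 of 14 tested collecting duct markers rose (Krt19, Krt18, Krt8, Epcam, Pax8 and Tfcp2l1) and 0 fell. In that fit 6.95% of all tested genes rose and 6.22% fell. Of the leukocyte markers Csf1r and Cd14 rose, of the endothelial ones Flt1 rose, and of the stromal ones Pdgfrb fell by 0.065 per number (edgeR adjusted p = 0.0404). Their part in the chemokine slopes was not tested.

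Several of these slopes rest on single libraries. Without NaCl replicate 8 the NaCl slope was -0.087 for Ccl2, 0.0077 for Cxcl10, -0.30 for Cxcl12 and 2.04 for Ccl20, and without NaCl replicate 5 it was 0.041 for Cxcl12. The NaCl slope of Cxcl1 was -0.060 without NaCl replicate 5 and -0.084 without NaCl replicate 8. Without control replicate 4 the control slope of Ccl20 was -0.019, and without control replicate 1 it was -0.83. The control slopes of Ccl2, Ccl7, Cxcl12 and Cxcl10 were negative whichever library was left out.

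**Figure D4:**
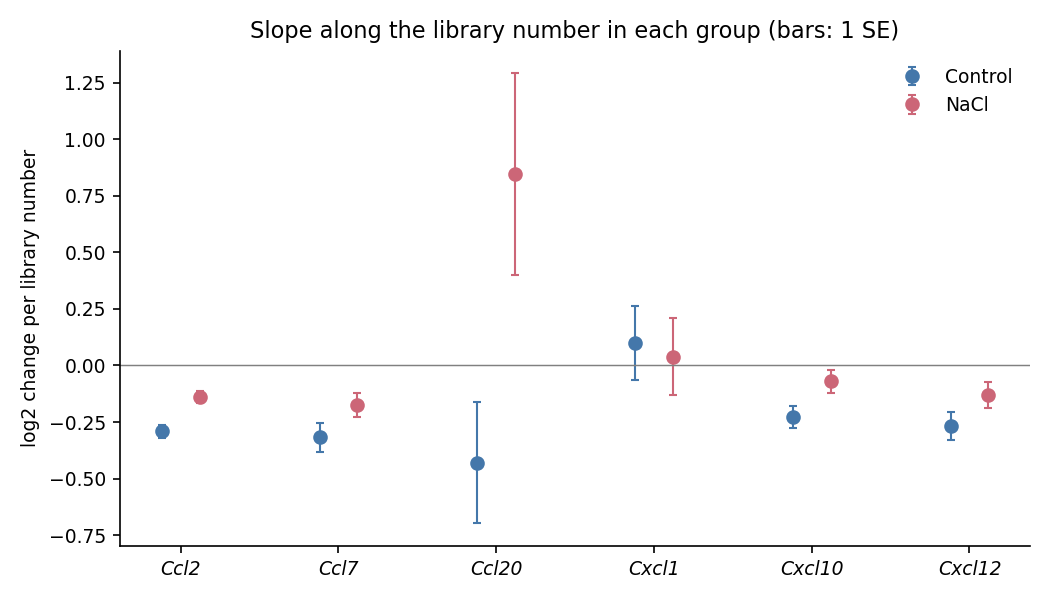
Slope of each gene along the library number (log2 change per number, y axis) in control (blue) and NaCl (red) libraries; bars are 1 SE. The slopes of Ccl2, Ccl7, Cxcl10 and Cxcl12 are below 0 in both groups, and lower in control.

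With a slope shared by both groups, 3 of the 6 genes (Ccl2, Ccl7 and Cxcl12) had a falling slope with an edgeR adjusted p-value under 0.05, where 6.22% of all tested genes did, 6.95% had a rising one, and 13.2% were past the threshold in either direction. The rule names this slope, so nothing is read from the count. Of the other 14021 tested genes, 103 had slopes at least as negative as the shallowest of these 3 in both groups. Over all tested genes 975 rose and 872 fell along the number. With library totals in place of TMM factors 731 rose and 1327 fell, and 3 members were again called falling. Fewer genes were called without control replicate 1 (619 rising, 330 falling), control replicate 4 (645 and 443) or NaCl replicate 8 (575 and 467).

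The number also bears on the group comparison, since it separates the groups. When the fit was given a straight-line drift along all library numbers, the log2 fold changes were 2.01 (SE 0.15) for Ccl2, 2.40 (SE 0.20) for Ccl7, 1.46 (SE 0.20) for Cxcl12, 0.63 (SE 0.24) for Cxcl10, -0.36 (SE 0.53) for Cxcl1 and -2.14 (SE 1.338) for Ccl20. Ccl20 was no longer past the threshold in that fit. A drift across the groups and the treatment cannot be told apart by design beyond this assumption of a straight line.

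Patterns over the 8 libraries were then compared by Pearson's r of log2 CPM, as a description over libraries that share group and number. The genes most like Ccl2 of 14023 were Impg2 (r = 0.992), Ccl7 (0.988) and Tmem184c (0.986), and those most like Ccl7 were Angptl4 (0.990), Angpt4 (0.990) and Plat (0.989). Cxcl12 was most like Ppm1g (0.984), Taf15 (0.982) and Srl (0.980). Cxcl10 was most like Nrip3 (0.965), Dut (0.965) and Cby1 (0.962). Ccl20 was most like Ndufb9 (0.968), Ifi206 (0.968) and Atp23 (0.967), and Cxcl1 was most like Prss46 (0.986), 2810021J22Rik (0.931) and 5330439K02Rik (0.929). After removal of the group means, Ccl2 and Ccl7 had r = 0.925, Ccl2 and Cxcl10 0.828, Ccl7 and Cxcl12 0.840, and Cxcl10 and Cxcl12 0.736. Within control and NaCl libraries taken apart these were 0.980 and 0.759, 0.817 and 0.902, 0.992 and 0.506, and 0.947 and 0.104, each over 4 libraries. Ccl20 had r of 0.213 with Ccl2, -0.093 with Ccl7, 0.114 with Cxcl12 and 0.267 with Cxcl10, and its value with Ccl7 pools 0.798 in control with -0.911 in NaCl libraries. Cxcl1 had negative r with every other member, from -0.640 with Ccl20 and -0.579 with Cxcl10 to -0.214 with Ccl7, and that last value pools -0.964 in control with 0.273 in NaCl libraries.

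The receptor genes were the next step of the pathway. Of 23 chemokine receptor genes, 3 had a row and 2 passed the filter, and neither was called between the groups, though 1 was called lower with the library number in the fit (centred within groups or as a linear drift) and without NaCl replicate 5 or 8. Ackr3, which encodes a scavenging receptor for CXCL12, had counts of 222, 222, 225 and 259 in the controls, against 48, 151, 163 and 193 with NaCl. NaCl library 5 was the low one, and in CPM the highest NaCl library (4.60) was just under the lowest control (4.65). The log2 fold change was -0.66 (SE 0.28; edgeR adjusted p = 0.0986), and along the library number Ackr3 rose by 0.27 per number (SE 0.08; adjusted p = 0.0210), a call lost without NaCl replicate 5 (slope 0.14) or 8 (0.25). Ccrl2, an atypical receptor for chemerin, had 14, 26, 43 and 14 counts against 20, 17, 18 and 15. Ccr9, the receptor for CCL25, had at most 8 counts in any library. The receptors of CCL2, CCL20, CXCL1 and CXCL10 (Ccr2, Ccr6, Cxcr2 and Cxcr3) had no row, and neither did Cxcr4.

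Genes that act before, on and after the chemokine transcripts were taken from 8 lists, receptors included, of which 107 genes were tested. Of these 13 were higher and 43 lower with NaCl in edgeR's test (52.3% called, against 34.1% of all tested genes; 17.2% of all were called lower). Along the library number 16 rose and 6 fell (20.6% called, against 13.2% of all tested genes). By list, rising and falling genes numbered 5 and 0 among cytokine receptors and adaptors, 4 and 1 for anchoring and cleavage, 2 and 0 for NF-kB, 2 and 0 for the other transcription factors, 1 and 1 for stability, 1 and 0 for cytokines, 1 and 0 for chemokine receptors, and 0 and 4 for interferon. Among the genes named below, Ifngr1, Zfp36l1, Tnfaip3 and Ndst1 rose by 0.09, 0.10, 0.08 and 0.04 per number (edgeR adjusted p = 5.02e-05, 2.16e-04, 0.0418 and 0.0286), and the last 2 lost the call in 7 and 4 of 13 refits. With library totals in place of TMM factors 11 rose and 13 fell along the number, 9 rose without NaCl replicate 5 and 8 without NaCl replicate 8, and 3 fell without control replicate 4. The lists were chosen with earlier results of these data known, so nothing is read from these counts and shares. The counts describe the lists and were not tested as sets.

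**Figure D5:**
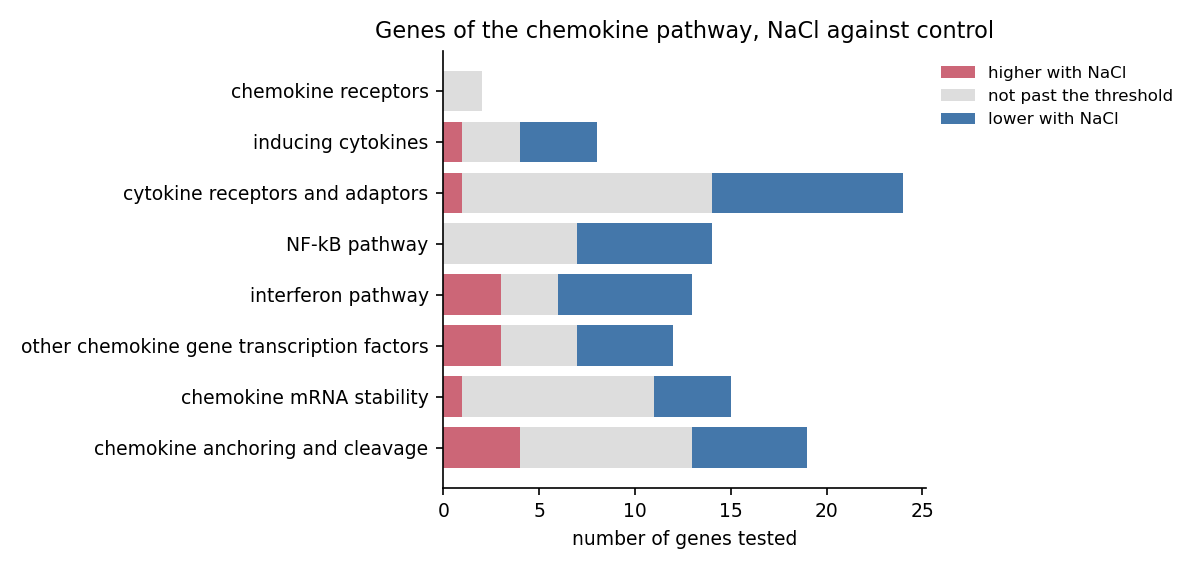
Number of tested genes (x axis) in each list that were higher with NaCl, not past the threshold, or lower with NaCl (edgeR adjusted p under 0.05). The NF-kB list has 7 lower and 0 higher, and the list of cytokine receptors and adaptors has 10 lower and 1 higher.

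Among cytokines known to induce chemokines, 9 of 17 had a row, and Tnf, Il1a, Il1b, Ifnb1 and Ifng had none. Of 8 tested, 1 rose and 4 fell (median log2 fold change -0.23). Il11, a cytokine of the IL-6 family, rose from 1.60 ± 0.440 to 2.64 ± 0.183 CPM (log2 fold change 0.72, SE 0.20; edgeR adjusted p = 0.0117). The alarmin Il33 fell from 16.9 ± 1.46 to 5.76 ± 1.51 CPM (-1.55, SE 0.14; adjusted p = 1.93e-06).

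Of 24 cytokine receptors and adaptors, 10 fell and 1 rose (median -0.11), and under the linear drift 6 fell and 0 rose. Ifngr1, a chain of the interferon-gamma receptor, fell from 163.5 ± 10.2 to 111.3 ± 11.7 CPM (log2 fold change -0.55, SE 0.07; edgeR adjusted p = 1.72e-04). Tlr2, a sensor of bacterial lipoproteins, rose from 10.8 ± 0.930 to 12.8 ± 1.24 CPM (0.25, SE 0.09; adjusted p = 0.0456). The Tlr2 call was lost under the drift (adjusted p = 0.0571) and without control replicates 1, 3 or 4 or NaCl replicates 5, 6 or 7 (0.0571 to 0.137).

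In the NF-kB pathway 7 of 14 genes fell and none rose (median -0.16), where 17.2% of all tested genes were called lower. With each library left out in turn, 5 to 6 genes of the list were called lower. Library totals in place of TMM factors, or the library number centred within groups in the fit, gave 1 higher. The members that fell were Relb, Nfkb2, Nfkbie, Bcl3, Chuk, Ikbkg and Tnfaip3. Tnfaip3, a feedback inhibitor of NF-kB, fell most, from 32.3 ± 1.79 to 24.1 ± 3.44 CPM (log2 fold change -0.42, SE 0.09; edgeR adjusted p = 0.00163). Rela and Nfkb1, the subunits of the classical dimer, had log2 fold changes of 0.04 and 0.08, and the inhibitor Nfkbia had 0.05, and none of these was called.

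In the interferon pathway 7 of 13 genes fell and 3 rose (median -0.15). Under the linear drift 1 gene of this list fell and 1 rose. Irf7, an interferon-induced regulator, fell from 365.3 ± 23.5 to 230.8 ± 19.3 CPM (log2 fold change -0.66, SE 0.06; edgeR adjusted p = 4.43e-06). Irf3, which is activated by nucleic acid sensors, rose from 42.6 ± 1.29 to 51.3 ± 2.17 CPM (0.27, SE 0.05; adjusted p = 3.01e-04). Irf1 fell by 0.20 on the log2 scale. Along the library number 4 of the 13 fell, Irf7, Rigi, Ifih1 and Cgas, and none rose, where 6.22% of all tested genes fell and 6.95% rose. The count was 2 when control replicate 1 or 4 or NaCl replicate 8 was left out, and 7 with library totals in place of TMM factors. The Irf7 slope call was lost without any single control replicate or NaCl replicate 5 or 8 (edgeR adjusted p from 0.0759 to 0.167).

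Of 12 further transcription factors 3 rose and 5 fell (median -0.11). Hif1a, the oxygen-regulated factor, rose from 265.1 ± 7.24 to 435.5 ± 17.9 CPM (log2 fold change 0.72, SE 0.04; edgeR adjusted p = 2.54e-10). Fosl1, an AP-1 subunit, fell from 18.8 ± 1.44 to 9.01 ± 1.99 CPM (-1.06, SE 0.13; adjusted p = 4.21e-05). Nfat5, the tonicity-responsive factor, and Jund also rose, and Jun, Atf3, Cebpb and Cebpd also fell.

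Of 15 genes for the stability of such transcripts, 1 rose and 4 fell (median -0.04), with 3 higher under the linear drift and 2 with library totals, DESeq2, the centred library number or without control replicate 3. Zfp36l1, which binds AU-rich elements and promotes decay, fell from 232.5 ± 24.9 to 177.7 ± 14.7 CPM (log2 fold change -0.39, SE 0.08; edgeR adjusted p = 0.00674). Dusp1, a phosphatase of p38 MAP kinase, rose from 37.9 ± 2.29 to 96.5 ± 3.10 CPM (1.35, SE 0.05; adjusted p = 2.28e-12). Zfp36, which encodes tristetraprolin, had a log2 fold change of 0.17 and was not called.

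Of 19 genes for the anchoring of chemokines on heparan sulfate and for their cleavage, 4 rose and 6 fell (median -0.01), and 2 rose without control replicate 2 or NaCl replicate 7. Ndst1, a heparan sulfate sulfotransferase, rose from 197.5 ± 10.99 to 300.1 ± 7.27 CPM (log2 fold change 0.60, SE 0.04; edgeR adjusted p = 5.36e-09). Cpm, a carboxypeptidase of the cell surface, fell from 4.80 ± 0.450 to 2.83 ± 0.737 CPM (-0.75, SE 0.17; adjusted p = 0.00249). The syndecans did not move alike, with Sdc2 and Sdc4 called higher and Sdc1 and Sdc3 called lower. Mmp2 and Mmp14, proteases known to cleave CXCL12 or CCL7, fell by 0.25 and 0.27 on the log2 scale, and Dpp4, which cleaves CXCL10 and CXCL12, had 4.32 ± 0.731 CPM in control (SD, n = 4) and was not called.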

How the data were processed

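Counts per Ensembl gene were deposited by the authors for 8 libraries. Per the submitters' processing notes, Trim Galore 0.6.7, STAR, DESeq2 1.34.0 and the build mm10 were used. The roles of these tools, the counting program, the use of strand and the filter on low genes are not given in the sources used here. No gene in the table had fewer than 19 counts over all libraries.

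The counts were tested in R 4.3.3 with edgeR 4.0.16 (filterByExpr with the groups and a minimum count of 10, TMM factors, robust quasi-likelihood F test, Benjamini-Hochberg adjustment over 14024 genes, threshold 0.05). SEs were derived from the F statistic. Slopes used the library number centred within each group, with a slope per group or a shared one. CPM are counts divided by TMM-scaled library totals, and a prior count of 2 was added for log2 CPM. Both tests were checked on simulated counts, where 9.05% of calls in the group test and 6.59% in the slope test were false. Both shares were above the threshold of 0.05.

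The members and gene lists were chosen with earlier results of these data known. The named genes were the members, the listed receptors, the called gene with the highest and the lowest log2 fold change of each list, and the 3 genes most like each member. Genes mentioned beyond these were chosen after their values were seen. Of 15288 identifiers, 15274 were in GENCODE M21 (GRCm38), which gave positions, exon lengths and 3' UTRs, and blastn 2.17.0 compared transcripts. Promoter windows came from RefSeq. Alternatives were median-of-ratios factors, library totals, no filter, at least 10 counts in every library, DESeq2 1.42.0, the library number in the fit, other transcript lengths and each library left out. SEs include the spread between libraries. The floor of 3 counts given for a count of 0 covers counting error only, as PCR copies are not independent molecules.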

Additional observations from a re-analysis of the deposited data

Results flagged for a closer look

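The 2 groups of 4 libraries were scanned, for the members, the named pathway genes and the receptors (44 sets of values), for a highest or lowest value set far from its neighbours. A single set showed one, against about 2.2 by chance. For Il33 with NaCl, replicate 8 read 8.004 CPM and the remaining 3 libraries 4.80 to 5.26 CPM. None of the 6 chemokine genes had such a library.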

How the results depend on the processing

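No paired analysis was possible because the libraries are numbered 1 to 8 and the groups share no number. With a linear drift over libraries 1 to 8, the log2 fold changes were 2.01 for Ccl2, 2.40 for Ccl7, -0.36 for Cxcl1, 0.63 for Cxcl10 and 1.46 for Cxcl12, and 0 members were called lower in place of 1. The count was also 0 with at least 10 counts in every library, because that filter removes Ccl20. Per kilobase of the longest coding transcript, a length added after seeing the data, RPKM in control and NaCl was 52.9 and 118 for Ccl2, 1.30 and 1.23 for Cxcl1, 34.2 and 34.4 for Cxcl10, and 1.37 and 2.19 for Cxcl12. The Cxcl12 values were the same for the longest annotated transcript. With library totals alone, genes called falling along the library number were 1327 in place of 872, and 13 in place of 6 in the pathway lists. With each library left out in turn, slopes ranged from -0.32 to -0.23 (control) and -0.16 to -0.087 (NaCl) for Ccl2, -0.24 to -0.15 (NaCl) for Ccl7, -0.83 to -0.019 (control) and 0.52 to 2.04 (NaCl) for Ccl20, -0.31 to -0.20 (control) and -0.10 to 0.0077 (NaCl) for Cxcl10, and -0.30 to 0.041 (NaCl) for Cxcl12. The last range crosses 0 without NaCl replicate 5, and that of Cxcl10 without NaCl replicate 8, and the NaCl slope of Cxcl1 ranged from -0.084 to 0.094, below 0 without NaCl replicate 5 or 8. Genes called along the number ranged from 575 to 982 rising and 330 to 888 falling, and in the pathway lists from 8 to 14 and 3 to 7. Of 195 refits of 13 named pathway genes between the groups, 188 kept the call, 7 lost it, all of them for Tlr2, and none reversed. Of 78 refits of 6 called slopes (Ackr3, Ifngr1, Tnfaip3, Irf7, Zfp36l1 and Ndst1), 19 lost the call. Depth limits Ccl20 most, with at most 16 counts in a NaCl library, and then Cxcl1.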
